A study of Homo sapiens with 6 samples.

Results

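The genes described here are the epidermal growth factor receptor (EGFR) family, its ligands and 3 genes that restrain it or related receptors, in MKN-74 gastric cancer cells made to express the homeobox transcription factor HOXD9. The 10 listed genes were ERRFI1, EGFR, ERBB2, ERBB3, ERBB4, LRIG1, AREG, EREG, TGFA and SH2B3. They were chosen on the LV-HOXD9 against LV-Vector gene values of these libraries, which were already known, so their values are a description and carry no test. Of the 10, 7 were among the 12385 genes of the gene table, and these 7 had 29 of the 40304 listed transcripts. ERBB4, AREG and EREG were not analysed here.

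MKN-74 is an established human gastric carcinoma line with an epithelial-like shape. LV-HOXD9 cells carried a lentivirus that expresses HOXD9 (labelled as the HOXD9 overexpressed genotype), and LV-Vector cells carried the same kind of lentivirus without HOXD9 (labelled WT). Both lines were kept in 10 μg/ml puromycin for more than 14 days, so both carried the viral backbone with its green fluorescent protein and puromycin resistance. There were 3 LV-HOXD9 libraries and 3 LV-Vector libraries of total RNA, labelled as biological replicates, and nothing says that they came from separate infections, so the spread between them may be partly technical. HOXD9 was 26.6, 26.4 and 31.3 FPKM in the LV-HOXD9 libraries, against 0, 0.0413 and 0.0309 FPKM in the LV-Vector libraries, where FPKM is a fragment count scaled by transcript length and by the library's mapped fragments. The question was which genes of this receptor system differed in level with HOXD9.

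Members of the receptor family (EGFR, ERBB2, ERBB3 and ERBB4) sit in the cell membrane, pair when a ligand such as TGFA binds, and phosphorylate their own tails, which recruit adaptors that switch on RAS, the MAP kinases and phosphatidylinositol 3-kinase. ERBB2 binds no ligand of its own, and ERBB3 has a weak kinase and signals through its partners. The cells also make inhibitors: ERRFI1 (also called MIG6) binds the kinase domain of the receptors and blocks it, LRIG1 is a membrane protein that promotes receptor degradation, and SH2B3 (also called LNK) is an adaptor that restrains cytokine receptors and their JAK kinases. EGFR and ERBB2 are well known in gastric cancer, where ERBB2 is amplified in some tumours.

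The promoters of the ERRFI1 and SH2B3 genes are shown because these were the only members called by limma below. Each run is the 250 bases before the RefSeq start (GRCh38.p14), 5′ to 3′ on the gene's strand, and the capitals mark GGGCGG, the GC box letters, on either strand (CCGCCC on the other). For each gene the start nearest that of its leading transcript in GENCODE 29 was used. The ERRFI1 run is chr1:8026310-8026559 on the minus strand, and the SH2B3 run is chr12:111405673-111405922 on the plus strand.
ERRFI1: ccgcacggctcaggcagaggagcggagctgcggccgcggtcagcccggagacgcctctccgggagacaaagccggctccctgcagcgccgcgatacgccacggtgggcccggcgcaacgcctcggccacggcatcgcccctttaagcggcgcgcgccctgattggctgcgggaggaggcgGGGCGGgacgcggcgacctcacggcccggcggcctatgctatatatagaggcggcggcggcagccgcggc
SH2B3: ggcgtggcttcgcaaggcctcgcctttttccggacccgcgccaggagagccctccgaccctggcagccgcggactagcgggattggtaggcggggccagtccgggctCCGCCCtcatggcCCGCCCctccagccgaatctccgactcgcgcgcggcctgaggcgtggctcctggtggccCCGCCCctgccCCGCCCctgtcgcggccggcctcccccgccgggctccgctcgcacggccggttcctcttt
The ERRFI1 run held 1 GGGCGG match and the SH2B3 run held 4. GGGCGG was found in 42.6% of all 35116 windows of this length. TTTAT, a core that group 9 and more posterior HOX proteins can bind, was found on neither strand of either run, against 32.7% of all windows, and TGANTCA, the core bound by AP-1, was also found in neither, against 6.57% of all windows. The 3 motifs did not overlap in either run. Guanine and cytosine made up 75.2% of the ERRFI1 run and 76% of the SH2B3 run, with a median of 58% over all windows. Among the other members, EGFR, LRIG1 and TGFA held no TTTAT and no TGANTCA, and the ERBB2 window held 1 TGANTCA and no TTTAT. That ERBB2 window lay 29335 bases from the start of the leading transcript, ERBB2-210, so it is not the promoter of that transcript. ERBB3 had no matching window. These matches describe letters only and say nothing of binding.

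The inhibitors ERRFI1 and SH2B3 had the largest differences among the 7 genes. ERRFI1 (ENSG00000116285, GRCh37 chr1:8064464-8086368, minus strand) was 20.9, 20.1 and 18.8 FPKM in the LV-HOXD9 libraries, against 33.0, 33.9 and 32.5 FPKM in the LV-Vector libraries. Every LV-HOXD9 library was below every LV-Vector library. The means were 19.9 ± 1.09 FPKM in LV-HOXD9 cells, against 33.1 ± 0.739 FPKM in LV-Vector cells (SD, n = 3 each), a ratio of means of 0.601, and the log2 fold change of log2(FPKM + 1) was -0.71 (SE 0.060). Of the 12385 genes it ranked 49 from the lowest log2 fold change. SH2B3 (ENSG00000111252, GRCh37 chr12:111843752-111889427, plus strand) was 3.71, 3.80 and 3.86 FPKM in the LV-HOXD9 libraries, against 8.13, 7.35 and 8.38 FPKM in the LV-Vector libraries. The libraries of each line lay close together and the lines did not overlap. The means were 3.79 ± 0.0741 FPKM in LV-HOXD9 cells, against 7.96 ± 0.537 FPKM in LV-Vector cells (SD, n = 3 each), a ratio of means of 0.477, and the log2 fold change was -0.90 (SE 0.072). It ranked 18 from the lowest. In these bulk samples, fewer expressing cells and less RNA per cell cannot be told apart.

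LRIG1 (ENSG00000144749, GRCh37 chr3:66429221-66551687, minus strand), the inhibitor in the membrane, was 8.50, 8.86 and 9.40 FPKM in the LV-HOXD9 libraries, against 10.3, 9.98 and 10.2 FPKM in the LV-Vector libraries. The lines did not overlap, but the gap between the nearest libraries was smaller than the range within LV-HOXD9. Its log2 fold change was -0.17 (SE 0.063).

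Among the receptors, ERBB3 differed most. ERBB3 (ENSG00000065361, GRCh37 chr12:56473641-56497289, plus strand) was 10.2, 10.2 and 10.5 FPKM in the LV-HOXD9 libraries, against 14.0, 12.2 and 12.3 FPKM in the LV-Vector libraries. The lines did not overlap, and LV-Vector replicate 1 was apart from its own replicates. Means were 10.3 ± 0.125 FPKM in LV-HOXD9 cells, against 12.8 ± 0.992 FPKM in LV-Vector cells (SD, n = 3 each). The log2 fold change was -0.29 (SE 0.070). EGFR (ENSG00000146648, GRCh37 chr7:55086714-55279321, plus strand) was 9.72, 9.78 and 8.86 FPKM in the LV-HOXD9 libraries, against 10.1, 9.85 and 10.0 FPKM in the LV-Vector libraries. The highest LV-HOXD9 value lay just under the lowest LV-Vector value, and the log2 fold change was -0.07 (SE 0.064). ERBB2 (ENSG00000141736, GRCh37 chr17:37844167-37886679, plus strand) was 17.1, 16.0 and 19.1 FPKM in the LV-HOXD9 libraries, against 21.8, 18.0 and 18.8 FPKM in the LV-Vector libraries. The lines overlapped, with a log2 fold change of -0.16 (SE 0.096). TGFA (ENSG00000163235, GRCh37 chr2:70674412-70781325, minus strand), the only listed ligand with a value, was 4.04, 3.72 and 3.37 FPKM in the LV-HOXD9 libraries, against 3.28, 2.79 and 3.75 FPKM in the LV-Vector libraries. These also overlapped, with a log2 fold change of 0.14 (SE 0.11).

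**Figure D1:**
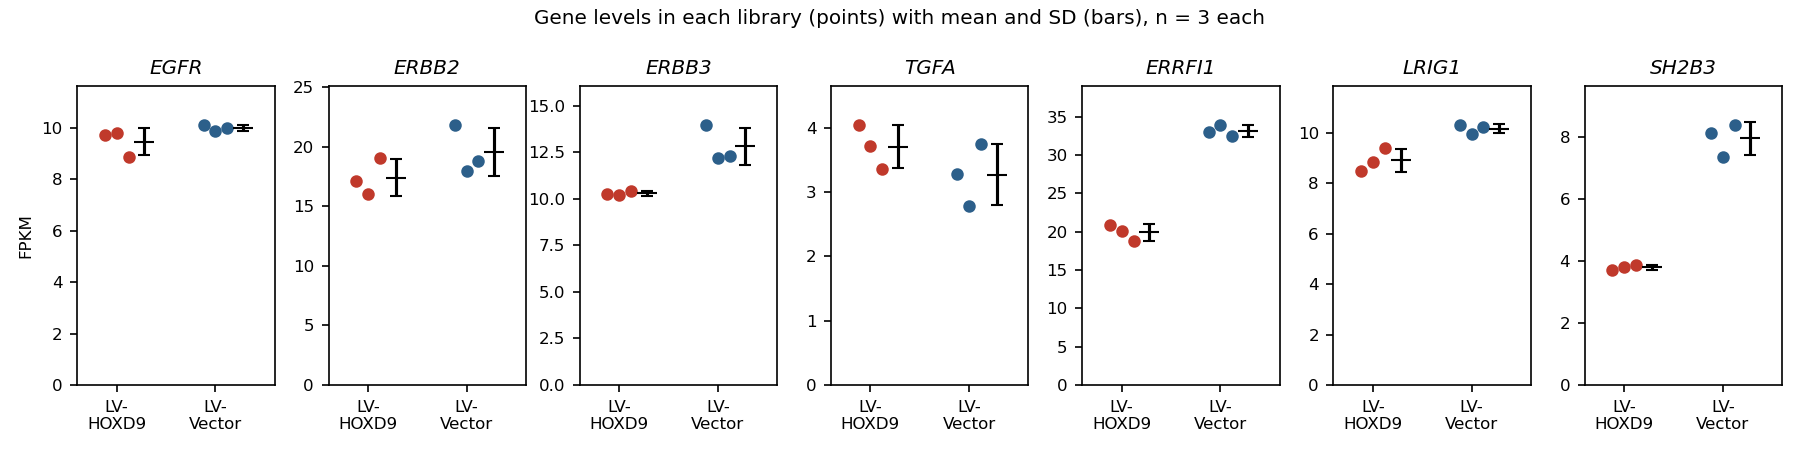
FPKM (y axes, each from 0) of the 7 genes in the 3 LV-HOXD9 libraries (red, left) and the 3 LV-Vector libraries (blue, right), with the mean and SD in black. The gap between the lines was widest for SH2B3 (3.71 to 3.86 against 7.35 to 8.38 FPKM) and ERRFI1 (18.8 to 20.9 against 32.5 to 33.9 FPKM), while ERBB2 and TGFA overlapped.

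The order of the levels was nearly the same in both lines. In LV-HOXD9 cells the order from high to low was ERRFI1, ERBB2, ERBB3, EGFR, LRIG1, SH2B3 and TGFA, and the ranges overlapped between ERRFI1 and ERBB2, between EGFR and LRIG1, and between SH2B3 and TGFA. In LV-Vector cells it was ERRFI1, ERBB2, ERBB3, LRIG1, EGFR, SH2B3 and TGFA, where only LRIG1 and EGFR overlapped. The overlap of ERRFI1 with ERBB2 in LV-HOXD9 cells came from replicate 3 alone. The ERRFI1 to ERBB2 ratio of FPKM was 1.22, 1.25 and 0.984 in LV-HOXD9 cells, against 1.51, 1.89 and 1.73 in LV-Vector cells. FPKM is scaled by length, so these orders set genes side by side. They are approximate, since library values also moved with base composition, as given below.

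Ratios within a library do not depend on a single scale factor of that library. Trends with base composition or length, as given below, can still shift them. The ERRFI1 to EGFR ratio of FPKM was 2.15, 2.05 and 2.12 in LV-HOXD9 cells, against 3.27, 3.44 and 3.25 in LV-Vector cells. The inhibitor was thus lower relative to the receptor in every LV-HOXD9 library. The ERRFI1 to LRIG1 ratio was 2.46, 2.27 and 2.00 in LV-HOXD9 cells, against 3.20, 3.40 and 3.18 in LV-Vector cells, so the inhibitors did not differ in proportion. The ERBB3 to EGFR ratio was 1.05, 1.05 and 1.18 in LV-HOXD9 cells, against 1.38, 1.24 and 1.23 in LV-Vector cells. The summed FPKM of EGFR, ERBB2 and ERBB3 was 37.1, 36.0 and 38.4 in LV-HOXD9 cells, against 45.9, 40.1 and 41.1 in LV-Vector cells. ERBB3 made up 27.2 to 28.4% of that sum in LV-HOXD9 cells and 29.9 to 30.5% in LV-Vector cells.

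Under limma with Benjamini-Hochberg adjustment over all 12385 genes, where a gene was called at an adjusted p under 0.05, 2 of the 7 members were called lower (ERRFI1 and SH2B3) and 0 higher, against 0.145% of all genes called lower and 0.0565% called higher. With the study's own kind of criterion, namely a fold above 1.2 in either direction together with an ordinary linear model's unadjusted p under 0.05, 3 members were called lower (ERRFI1, SH2B3 and ERBB3) and 0 higher, against 4.6% and 1.94% of all genes. The lines did not overlap for 5 of the 7, all lower in LV-HOXD9, against 17.5% of all genes lower and 10.9% higher. Since the members were selected on this contrast, nothing is read from these counts. The limma calls of ERRFI1 and SH2B3 were lost, to 0 of 7, without LV-HOXD9 replicate 1, without LV-HOXD9 replicate 2 or without LV-Vector replicate 3, and the ERBB3 call was lost without LV-Vector replicate 1. The limma calls were also lost, to 0 of 7, with a replicate block, with an unmoderated adjusted test, and with LV-HOXD9 replicate 3 and LV-Vector replicate 2 both left out. The ERBB3 call was lost in that last setting too. The median log2 fold change was -0.17 over the 7 members and -0.04 over all genes.

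**Figure D2:**
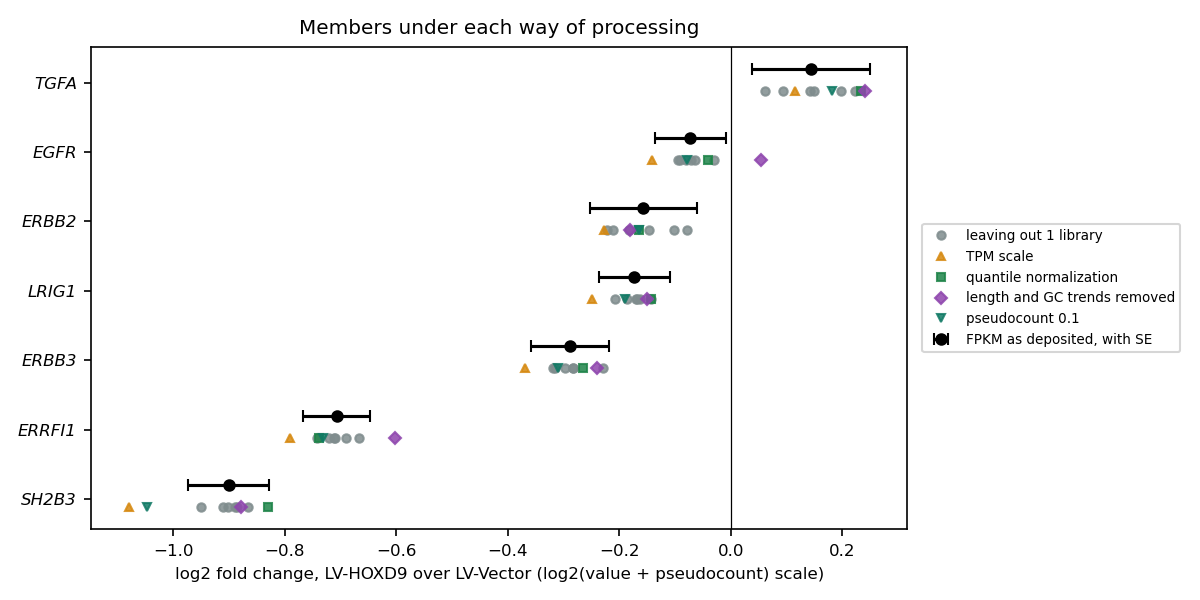
Log2 fold change of each gene (x axis, LV-HOXD9 over LV-Vector) with its SE in black, and below it the values without each library in turn (grey) and under other scales. ERRFI1 ran from -0.79 on the TPM scale to -0.60 with length and GC trends removed, SH2B3 from -1.08 to -0.83, and EGFR from -0.14 to 0.05, on both sides of 0.

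Base composition moved with the libraries. Across genes, how far a library lay from the gene's mean rose with the guanine and cytosine (GC) content of the leading transcript in 1 LV-HOXD9 library, replicate 3 (Spearman's rho 0.659), and fell with it in replicate 2 of LV-Vector (rho -0.601). In LV-Vector replicates 1 and 3 rho was 0.231 and -0.295. In LV-HOXD9 replicates 1 and 2 it was -0.0497 and -0.0396. Across genes the log2 fold change of LV-HOXD9 over LV-Vector also rose with GC (rho 0.43). ERRFI1's leading transcript was 43.4% GC and SH2B3's 55.0%, with 49.7% as the median over all genes. With smooth trends in length and GC removed, the log2 fold change was -0.60 for ERRFI1, -0.88 for SH2B3, -0.24 for ERBB3 and 0.05 for EGFR. The direction of the EGFR difference therefore changed, and the ERBB3 call was lost.

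The leading transcripts of ERRFI1 and SH2B3, which had the longest listed coding sequences, were lower in every LV-HOXD9 library. The difference was not confined to them, since the short ERRFI1-202 was lower too. ERRFI1-201, which encodes 462 amino acids, was 23.2, 24.1 and 21.1 FPKM in LV-HOXD9 cells, against 37.7, 36.3 and 36.7 FPKM in LV-Vector cells, a log2 fold change of -0.68. It held between 69.2% and 92.2% of the gene's transcript FPKM in each library. ERRFI1-202, with 79 codons, was 1.76, 1.49 and 1.22 FPKM in LV-HOXD9 cells, against 2.39, 2.88 and 2.71 FPKM in LV-Vector cells. Both transcripts were lower in every LV-HOXD9 library. ERRFI1-203 was 5.47, 0.516 and 0.672 FPKM in LV-HOXD9 cells, against 0.687, 12.8 and 0.725 FPKM in LV-Vector cells, and ERRFI1-204 was over 1 FPKM in LV-HOXD9 replicate 2 alone, at 8.70 FPKM. These high values stood in 1 library of a line at a time. SH2B3-201, with 575 codons, was 3.84, 3.91 and 3.93 FPKM in LV-HOXD9 cells, against 8.46, 7.70 and 8.55 FPKM in LV-Vector cells, a log2 fold change of -0.92. The other SH2B3 transcript, SH2B3-203, stayed under 1 FPKM and the lines overlapped. LRIG1 had 1 listed transcript, LRIG1-201, at 11.0, 11.5 and 11.8 FPKM in LV-HOXD9 cells, against 13.6, 13.2 and 13.3 FPKM in LV-Vector cells.

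The receptor transcripts varied between libraries of the same line. EGFR-201, which encodes the full receptor of 1210 amino acids, held between 31.1% and 95.5% of the EGFR transcript FPKM. The shorter EGFR-204, with 405 codons, was 6.06, 0.451 and 0.376 FPKM in LV-HOXD9 cells, against 8.28, 8.36 and 0.576 FPKM in LV-Vector cells. It was high in the first LV-HOXD9 library and in replicates 1 and 2 of LV-Vector, as was EGFR-207, so these EGFR transcripts did not follow the lines. ERBB2-201, with 1255 codons, was 1.22, 11.1 and 0.950 FPKM in LV-HOXD9 cells, against 4.46, 2.47 and 3.92 FPKM in LV-Vector cells. ERBB2-205 reached 30.9 FPKM in LV-Vector replicate 1 and was at most 4.05 FPKM in the other libraries. The gene values of ERBB2 and EGFR varied far less than these. ERBB3-201, with 1342 codons, was 8.76, 9.27 and 7.39 FPKM in LV-HOXD9 cells, against 12.3, 9.12 and 13.4 FPKM in LV-Vector cells, and the lines overlapped. TGFA-201, with 160 codons, was 4.37, 4.10 and 3.46 FPKM in LV-HOXD9 cells, against 3.44, 3.01 and 4.05 FPKM in LV-Vector cells, also overlapping.

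**Figure D3:**
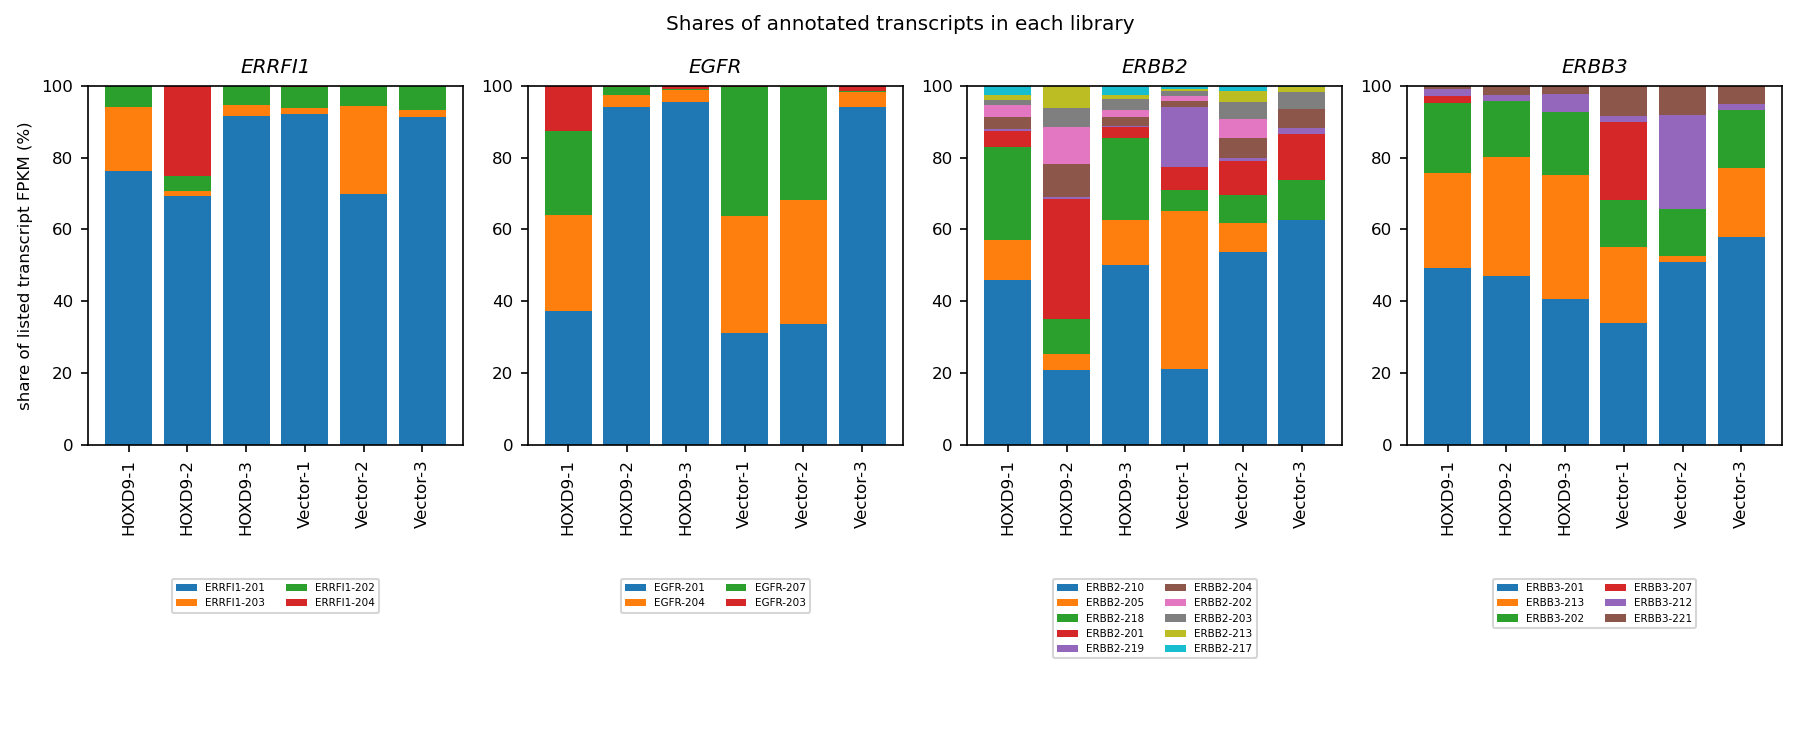
Share of each gene's listed transcript FPKM (y axis, %) held by each transcript, in the 3 LV-HOXD9 libraries (left) and the 3 LV-Vector libraries (right). ERRFI1-201 led in every library, at 69.2% or more, while the EGFR shares split by library and not by line.

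Of the 29 member transcripts, 0 were called by limma over all 40304 transcripts, where 0.0645% were called lower and 0.0347% higher. The lines did not overlap for 5 transcripts, all lower in LV-HOXD9 (ERRFI1-201, ERRFI1-202, SH2B3-201, LRIG1-201 and ERBB3-221), against 8.7% of all transcripts lower and 6.71% higher. The members having been chosen on the gene values of the same libraries, this count is also a description. For every member in every library, the transcript FPKM summed to more than the gene FPKM. For ERRFI1 in LV-HOXD9 replicate 1 they summed to 30.4 against a gene value of 20.9. LRIG1, with 1 listed transcript, was 11.0 FPKM in that library against a gene value of 8.50. Transcript and gene values were thus not on the same scale.

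The wider pathway was read from a list of 96 other genes in 8 roles, of which 83 had values. Under limma 0 of the 83 were called in either direction, with 18 lower and 3 higher at an unadjusted p under 0.05, against 11.9% of all genes lower and 7.12% higher. With the ordinary linear model and fold criterion 6 were lower and 1 higher, against 4.6% and 1.94% of all genes. These were ADAM17, SOS2, PTPRJ, RNF41, SPRED1 and EPOR, lower in LV-HOXD9, and SOCS3, higher. The lines did not overlap for 23 genes that were lower and 5 that were higher, against 17.5% and 10.9% of all genes. The median log2 fold change over the 83 was -0.09, and over all genes it was -0.04. With length and GC trends removed, these medians were -0.02 and 0.01. The count by the fold criterion was 1 without LV-HOXD9 replicate 3 and 2 without LV-Vector replicate 2, the libraries with the strongest GC trends named above, and their part in the count was not tested. Of the 7 genes, EPOR was the only one still called without LV-HOXD9 replicate 3, PTPRJ and EPOR without LV-Vector replicate 2, RNF41 and EPOR with length and GC trends removed, and PTPRJ and SOCS3 with a replicate block. Without LV-Vector replicate 1 the calls of ADAM17, RNF41 and SPRED1 were lost, and without LV-Vector replicate 3 those of ADAM17, SOS2, RNF41 and SPRED1. The RNF41 call was lost without LV-HOXD9 replicate 1, and the SOS2 call without LV-HOXD9 replicate 2. On the TPM scale the RNF41 and SOCS3 calls were lost. With LV-HOXD9 replicate 3 and LV-Vector replicate 2 both left out, all 7 calls were lost.

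Ligands and the proteases that release them came first in the pathway. HBEGF, a ligand of EGFR and ERBB4, was 2.10, 1.96 and 2.23 FPKM in LV-HOXD9 cells, against 1.96, 1.97 and 2.27 FPKM in LV-Vector cells. BTC, another ligand, stayed under 1 FPKM in every library, and these were the only 2 of the 8 other ligands with values. Neither differed beyond its spread. ADAM17, the protease that cuts TGFA and several other ligands from the membrane, was 8.80, 8.74 and 7.17 FPKM in LV-HOXD9 cells, against 10.2, 10.8 and 10.3 FPKM in LV-Vector cells. Every LV-HOXD9 library was lower, with a log2 fold change of -0.31 (SE 0.088, limma adjusted p = 0.180), and of -0.17 with length and GC trends removed. FURIN, which trims precursor proteins including ADAM proteases, averaged 35.8 ± 2.43 FPKM in LV-HOXD9 cells, against 35.4 ± 3.11 FPKM in LV-Vector cells (SD, n = 3 each). RHBDF1, an inactive rhomboid protein that helps ADAM17 mature, averaged 10.5 ± 1.45 FPKM in LV-HOXD9 cells, against 10.7 ± 1.5 FPKM in LV-Vector cells (SD, n = 3 each).

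Adaptors link the receptor tails to RAS. SHC1 averaged 46.0 ± 2.46 FPKM in LV-HOXD9 cells, against 47.3 ± 2.18 FPKM in LV-Vector cells, and CRKL averaged 31.5 ± 1.33 FPKM in LV-HOXD9 cells, against 31.5 ± 0.592 FPKM in LV-Vector cells (SD, n = 3 each). SOS2, an exchange factor that loads RAS with GTP, was 3.68, 3.65 and 2.92 FPKM in LV-HOXD9 cells, against 4.37, 5.46 and 4.66 FPKM in LV-Vector cells. The log2 fold change was -0.40 (SE 0.11, limma adjusted p = 0.173), and -0.22 with length and GC trends removed. The lines did not overlap. GRB2 and NCK2 had the widest values of the list, and are named after their values were seen. GRB2, the adaptor that carries SOS proteins to the receptors, was 7.15, 6.28 and 6.74 FPKM in LV-HOXD9 cells, against 18.4, 17.2 and 6.33 FPKM in LV-Vector cells. NCK2 was 5.09, 13.1 and 14.3 FPKM in LV-HOXD9 cells, against 5.30, 4.72 and 4.41 FPKM in LV-Vector cells. In each gene 1 library of a line stood with the other line, and neither passed (limma adjusted p = 0.264 for GRB2 and 0.223 for NCK2). Leaving out that library made the call: GRB2 lower without LV-Vector replicate 3, and NCK2 higher without LV-HOXD9 replicate 1.

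In the kinase cascade, where 18 of 19 genes had values, none was called by either criterion. MAP2K2, a kinase that activates MAPK3, averaged 37.5 ± 4.71 FPKM in LV-HOXD9 cells, against 33.7 ± 0.565 FPKM in LV-Vector cells (SD, n = 3 each). MAPK3, a MAP kinase at the end of the cascade, averaged 28.1 ± 2.32 FPKM in LV-HOXD9 cells, against 28.6 ± 2.31 FPKM in LV-Vector cells (SD, n = 3 each). The median log2 fold change of the role was -0.02.

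Among the 14 other receptor inhibitors, 2 were lower and 1 higher by the fold criterion. PTPRJ, a membrane phosphatase that acts on EGFR, was 7.89, 8.43 and 7.02 FPKM in LV-HOXD9 cells, against 9.61, 10.0 and 9.83 FPKM in LV-Vector cells. The log2 fold change was -0.31 (SE 0.078, limma adjusted p = 0.159), and -0.20 with length and GC trends removed. RNF41, a ubiquitin ligase that sends ERBB3 for degradation, was 7.40, 7.99 and 5.94 FPKM in LV-HOXD9 cells, against 9.23, 8.88 and 9.03 FPKM in LV-Vector cells (log2 fold change -0.32, limma adjusted p = 0.205, and -0.21 without LV-HOXD9 replicate 3). SOCS3, an inhibitor of cytokine receptors that STAT3 induces, was 9.05, 9.17 and 9.84 FPKM in LV-HOXD9 cells, against 7.66, 7.21 and 7.98 FPKM in LV-Vector cells. It was the only list gene higher by that criterion, with a log2 fold change of 0.27 (SE 0.068, limma adjusted p = 0.163). Its fold of 1.202 was barely over the cut of 1.2. The call was lost on the TPM scale (log2 fold change 0.225), with length and GC trends removed (0.235) and without LV-HOXD9 replicate 3 (0.232). CBLC, an epithelial ubiquitin ligase of the CBL family, averaged 51.6 ± 4.54 FPKM in LV-HOXD9 cells, against 57.3 ± 3.13 FPKM in LV-Vector cells. PTPN1, a phosphatase of receptor tyrosine kinases, averaged 20.3 ± 0.338 FPKM in LV-HOXD9 cells, against 18.6 ± 0.284 FPKM in LV-Vector cells (SD, n = 3 each), and the lines did not overlap. The log2 fold change of PTPN1 was 0.12, against 0.06 on the TPM scale.

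Of the 9 downstream inhibitors, SPRED1 was the only one called by the fold criterion. SPRED1, which brings the RAS inhibitor NF1 to the membrane, was 5.90, 5.92 and 4.59 FPKM in LV-HOXD9 cells, against 6.89, 7.26 and 7.32 FPKM in LV-Vector cells (log2 fold change -0.34, limma adjusted p = 0.185). With length and GC trends removed its log2 fold change was -0.13 and the call was lost. SPRED2 averaged 18.0 ± 0.669 FPKM in LV-HOXD9 cells, against 20.0 ± 0.381 FPKM in LV-Vector cells, and NF1 averaged 6.15 ± 1.11 FPKM in LV-HOXD9 cells, against 7.50 ± 0.517 FPKM in LV-Vector cells (SD, n = 3 each). For SPRED2 and NF1 too, every LV-HOXD9 library was lower, but the log2 fold change of NF1 was -0.26, against -0.05 with length and GC trends removed and -0.12 without LV-HOXD9 replicate 3, and that of SPRED2 was -0.14, against -0.09 with the trends removed. In the endocytosis role, where 14 of 15 genes had values, none was called, and RAB7A, which directs cargo to lysosomes, averaged 55.8 ± 2.48 FPKM in LV-HOXD9 cells, against 54.5 ± 3.88 FPKM in LV-Vector cells (SD, n = 3 each). AP2M1, a subunit of the clathrin adaptor, averaged 18.1 ± 2.54 FPKM in LV-HOXD9 cells, against 15.9 ± 0.229 FPKM in LV-Vector cells (SD, n = 3 each). The lines did not overlap, but LV-HOXD9 replicate 2, at 21.0 FPKM, was apart from its own replicates. The log2 fold change of AP2M1 was 0.17 over all libraries and 0.07 without that replicate.

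SH2B3 restrains JAK kinases, so the receptors and kinases around it were read as their own role, with 6 of 10 genes listed. EPOR, the erythropoietin receptor, was 1.19, 0.860 and 0.947 FPKM in LV-HOXD9 cells, against 1.5, 1.88 and 1.61 FPKM in LV-Vector cells. The log2 fold change was -0.42 (SE 0.095, limma adjusted p = 0.147), and -0.69 with a pseudocount of 0.1 in place of 1. The levels were low and the lines did not overlap. JAK1 averaged 10.4 ± 0.602 FPKM in LV-HOXD9 cells, against 11.4 ± 0.744 FPKM in LV-Vector cells, and TYK2 averaged 7.43 ± 0.545 FPKM in LV-HOXD9 cells, against 7.72 ± 0.683 FPKM in LV-Vector cells (SD, n = 3 each), both overlapping.

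**Figure D4:**
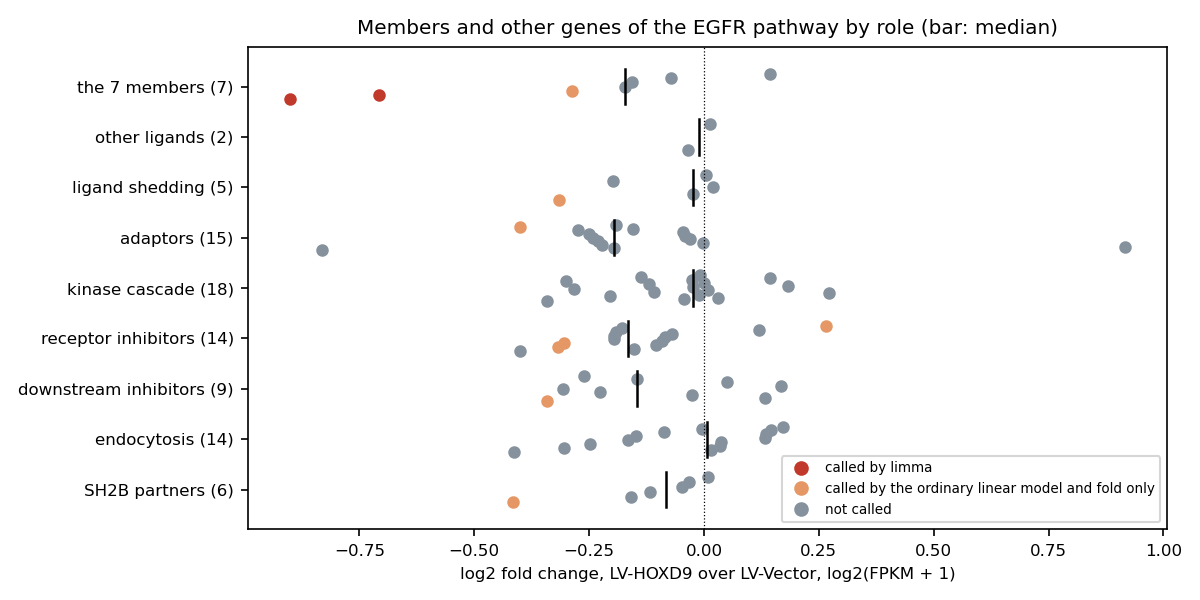
Log2 fold change (x axis, LV-HOXD9 over LV-Vector) of the 7 members and of the 83 listed pathway genes by role, with the median as a bar. ERRFI1 and SH2B3, at -0.71 and -0.90, were called by limma (red), and ERBB3 and 7 pathway genes (orange) by the ordinary linear model and fold only.

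The genes most like ERRFI1 over the 6 libraries were found by the root mean square difference of log2(FPKM + 1) after each gene's mean was removed, among 10273 protein-coding genes. They were FAM84B (0.0472), RELN (0.0617), MTHFD2 (0.0628), LYZ (0.0785) and ZBTB21 (0.0849), against a median of 0.357 over all candidates. MTHFD2, a mitochondrial enzyme of folate metabolism, was 22.6, 22.0 and 18.5 FPKM in LV-HOXD9 cells, against 32.5, 34.9 and 35.4 FPKM in LV-Vector cells, without overlap. For SH2B3 the nearest were RELN (0.0790), SLC6A9 (0.102), DDIT3 (0.109), ALPPL2 (0.117) and ERRFI1 itself (0.131), with a median of 0.453. DDIT3, a stress-induced transcription factor, was 4.44, 5.30 and 4.31 FPKM in LV-HOXD9 cells, against 9.06, 8.09 and 11.0 FPKM in LV-Vector cells. A gene lower in LV-HOXD9 by a like amount is near by construction.

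The epithelial markers EPCAM, CDH1, KRT8, KRT18, KRT19 and CLDN4 were all listed. Their summed level was 954 to 978 FPKM in LV-HOXD9 cells and 802 to 909 FPKM in LV-Vector cells. KRT8, KRT18, KRT19 and EPCAM made up nearly all of that sum. Over all libraries CDH1 was only 2.16 to 2.75 FPKM and CLDN4 0.576 to 2.91 FPKM, so the sum says little of these. Of the fibroblast markers 1 of 5 was listed (0.924 to 1.05 FPKM in LV-HOXD9 cells and 1.00 to 1.22 FPKM in LV-Vector cells), and of the endothelial markers 0 of 4. Of the immune markers, LYZ was 1.72, 1.71 and 1.24 FPKM in LV-HOXD9 cells, against 2.93, 2.95 and 2.71 FPKM in LV-Vector cells, without overlap, and PTPRC, which marks leukocytes, was not listed. The part of the marker differences in the results above was not tested.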

How the data were processed

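RNA from 3 LV-HOXD9 and 3 LV-Vector libraries was prepared by the authors with a stranded kit. The submitters' processing notes name cutadapt, FastQC, HISAT2, StringTie and GRCh37, and the FPKM came from Ballgown per the methods. The tool versions were not given in the sources used here. Deposited values were FPKM per gene and per transcript, with no listed gene below a mean of 0.5 FPKM in both lines. Depth is unknown: between 9.21% and 21.1% of 76 low values per library were whole multiples of the smallest within 0.05, where an even spread gives 10%, so whole reads were not recovered.

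FPKM was analysed as log2(FPKM + 1) in limma 3.58.1 (R 4.3.3), with a trend and Benjamini-Hochberg adjustment over all features at 0.05, and with a second criterion (ordinary linear model, p under 0.05 without adjustment, fold over 1.2). A fold change on this scale understates changes of low genes. Scripts were tested on simulated data. Members and lists were chosen with earlier results of these data known. All members, HOXD9, list genes called by either criterion, the 2 highest list genes per role and the 5 nearest genes were named. Alternatives were a pseudocount of 0.1, a minimum mean of 1 FPKM, quantile normalization, the TPM scale, a replicate block, removal of length and GC trends, an unmoderated adjusted test and leaving out libraries. GENCODE 29 gave lengths and GC by transcript ID, and RefSeq the promoters. The summed level of the immune markers is not reported here.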

Additional observations from a re-analysis of the deposited data

How the results depend on the processing

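Leaving out 1 library at a time gave 0 to 2 member calls by limma, 0 to 1 pathway calls, 4 to 25 calls over all genes (25 with every library) and 1 to 9 pathway calls by the ordinary linear model and fold (7 with every library). With a replicate block, although libraries of the same number did not deviate together (correlations of -0.173, 0.168 and -0.0064), limma called 0 members and 3 genes in all, and the fold criterion called 2 pathway genes. With length and GC trends removed, limma called 1 pathway gene (CBLC) and 362 genes in all (152 lower and 210 higher, against 18 lower and 7 higher as deposited), and the fold criterion called 2 pathway genes. With both LV-HOXD9 replicate 3 and replicate 2 of LV-Vector left out, a setting chosen after seeing the data, limma called 0 members and 9 genes in all. The fold criterion then called 2 pathway genes, CBLC and SPRY1, and none of the 7 called with every library. An unmoderated adjusted test called 0 members and 12 genes. The cause of these differences was not tested. Members called by the fold criterion stayed at 2 to 3. Quantile normalization gave 330 lower and 315 higher calls by the fold criterion, removal of the trends 338 lower and 282 higher, and the TPM scale 1065 lower and 150 higher, against 570 lower and 240 higher as deposited. In the pathway list the TPM scale gave 9 lower and 0 higher, against 6 lower and 1 higher as deposited. The median log2 fold change of all genes was -0.11 on the TPM scale, against -0.04 as deposited. It was 0.00 with quantile normalization and 0.01 with the trends removed. With FPKM and no counts, precision is limited by the 3 libraries per line.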
